A study of Mus musculus with 4 samples.

Results

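Genes of the extracellular matrix, of the integrin and syndecan receptors that hold cells to it and of the proteases that cut it were followed in the prefrontal cortex of transgenic and control mice. The transgenic mice overexpressed the human synaptic form of acetylcholinesterase (AChE), which ends acetylcholine signalling. Members were the probe sets of the array whose single gene symbol begins with Col and a digit, Lama, Lamb, Lamc, Itga, Itgb, Mmp, Timp, Adam, Fbln, Sdc or Thbs, or is Agrn, Fn1, Hspg2, Bcan, Ncan, Vcan, Sparc, Dcn, Lum or Reln. This gave 164 of 12422 probe sets and 113 of 8251 genes. Expression had been measured on 4 single-channel arrays, 2 for transgenic and 2 for control prefrontal cortex, and each array held total RNA pooled from 4 female mice. The transgenic mice carried the human synaptic AChE transgene, and its promoter, the line and its strain background were not given. No allele or treatment was named for the control mice, which were of the FVB/N strain. Ages of the mice were not given.

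The matrix of the adult cortex differs from that of other organs. Fibrillar collagens, fibronectin and laminins sit mainly in the basement membranes of blood vessels and in the meninges, while the space between neurons is filled by hyaluronan with the lecticans brevican, neurocan and versican. Integrins are paired receptors of an alpha and a beta chain, syndecans are membrane proteoglycans with heparan sulfate chains, and matrix metalloproteinases (MMPs) and ADAM proteases cut matrix and surface proteins under the restraint of tissue inhibitors (TIMPs). At the neuromuscular junction several of these genes act beside AChE: agrin clusters the acetylcholine receptors, and perlecan, the product of Hspg2, anchors the collagen-tailed form of the enzyme.

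Of the 164 probe sets, 73 (58 genes) were bright enough to be tested, which required a mean log2 intensity above the 40th percentile of the array, an intensity of 49.4. The other 91 were not tested, and 36 lay at or under the intensity floor of 19.675 in every pool. Among the tested probe sets 7 passed at an adjusted p of 0.05 (limma with Benjamini-Hochberg adjustment over all 7453 tested probe sets). Of these, 3 rose in the transgenic pools (Col19a1, Lamb1 and Mmp14) and 4 fell (Agrn at both of its probe sets, Sdc4 and Adam11). Col19a1 passed the filter only through the transgenic pools, since both control values lay under 49.4. The 7 are 9.59% of the tested members, against 10.0% of all tested probe sets, so the share called among matrix and adhesion probe sets lay near the background. The background was 5.46% for rises and 4.56% for falls. The calls rested on few pools, and most of the 7 were lost when any 1 pool was left out. Calls over all probe sets also fell without either transgenic pool. Without transgenic replicate 1 or 2 the log2 changes were 2.63 and 2.09 for Col19a1, 0.97 and 0.95 for Lamb1 and 0.93 and 0.86 for Mmp14. They were -0.88 and -0.52 for Sdc4, -0.58 and -0.61 for Adam11, and -0.65 and -0.52 for Agrn at 97921_at. At 104763_at Agrn had -0.56 and -0.52.

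The sequences before the transcription starts of the genes that passed are shown because the promoter is where members that moved together could be compared. Of the 6 genes 5 were matched, all but Adam11. Each line gives the 250 bases before the start (of Agrn, which has 2 starts in the table, the one farther upstream), 5′ to 3′ on the gene's strand, from RefSeq on GRCm38.p6. Capitals mark matches to GGGCGG (the GC box), TATAAA (the TATA box), TGANTCA (the AP-1 site) or TGACGTCA (the cAMP response element) on either strand, overlaps included.
Mmp14, chr14:54431348-54431597, plus strand: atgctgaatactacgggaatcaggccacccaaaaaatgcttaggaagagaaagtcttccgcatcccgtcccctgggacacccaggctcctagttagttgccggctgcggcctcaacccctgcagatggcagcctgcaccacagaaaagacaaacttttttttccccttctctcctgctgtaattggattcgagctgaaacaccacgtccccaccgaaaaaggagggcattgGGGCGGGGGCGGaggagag
Lamb1, chr12:31265043-31265292, plus strand: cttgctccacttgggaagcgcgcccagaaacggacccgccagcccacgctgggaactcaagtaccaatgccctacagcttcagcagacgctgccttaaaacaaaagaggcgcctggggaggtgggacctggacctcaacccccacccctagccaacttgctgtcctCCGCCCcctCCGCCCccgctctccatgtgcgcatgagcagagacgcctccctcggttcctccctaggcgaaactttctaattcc
Col19a1, chr1:24587438-24587687, minus strand: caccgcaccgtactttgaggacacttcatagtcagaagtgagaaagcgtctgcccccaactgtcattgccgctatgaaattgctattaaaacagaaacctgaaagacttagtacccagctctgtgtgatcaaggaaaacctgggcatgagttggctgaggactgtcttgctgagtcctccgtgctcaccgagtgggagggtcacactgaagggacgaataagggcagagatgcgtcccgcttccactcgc
Agrn, chr4:156197489-156197738, minus strand: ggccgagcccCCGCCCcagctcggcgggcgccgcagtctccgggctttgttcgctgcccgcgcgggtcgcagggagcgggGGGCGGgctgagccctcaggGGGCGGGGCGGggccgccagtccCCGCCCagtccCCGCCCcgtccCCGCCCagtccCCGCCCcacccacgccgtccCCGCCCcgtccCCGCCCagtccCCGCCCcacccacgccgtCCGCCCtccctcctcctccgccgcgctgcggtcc
Sdc4, chr2:164443189-164443438, minus strand: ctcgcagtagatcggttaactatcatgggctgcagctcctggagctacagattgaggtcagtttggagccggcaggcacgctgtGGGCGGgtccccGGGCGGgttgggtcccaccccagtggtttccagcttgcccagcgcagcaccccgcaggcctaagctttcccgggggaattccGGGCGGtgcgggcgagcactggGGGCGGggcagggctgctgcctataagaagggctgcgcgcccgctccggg
All capitals above are GC boxes, with 2 matches for Mmp14, 2 for Lamb1, 0 for Col19a1, 12 for Agrn and 4 for Sdc4. A GC box was present in 32.7% of the 32851 promoter windows of this length in the table, a TATA box in 12.4%, an AP-1 site in 6.75% and a cAMP response element in 1.55%. The window of Agrn was 83.6% G and C and that of Sdc4 68.0%, against 55.2% for Mmp14, 62.0% for Lamb1, 52.0% for Col19a1 and a median of 52.4% over all windows. A match is a description of letters and says nothing of whether a factor binds there.

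Medians of intensity over all probe sets were 87.45 and 88.2 in the transgenic pools and 87.4 and 86.6 in the control pools. All mice are labelled female, but Xist, the RNA of the inactive X chromosome, read 178.5 and 228 in the transgenic pools and 29.3 and 21.1 in the control pools, close to the floor there. The 3 Y-linked genes on the array (Kdm5d, Eif2s3y and Uty) read 28 or less in every pool. The probe set of the mouse Ache gene fell by 0.76 on the log2 scale (adjusted p = 0.00768), and as a probe set annotated to the mouse gene it does not check the human transgene. In pooled tissue RNA, fewer cells of a type and less RNA per cell cannot be told apart. Among cell type markers, each gene read from its probe set of highest signal, the haemoglobin gene Hba-a1 and the erythroid gene Alas2 rose (2 of 2 tested blood genes; summed signal 6985 to 8523 in transgenic and 2432 to 2840 in control pools, with the leukocyte marker S100a9 at the floor). Of 8 tested endothelial genes 1 rose and 0 fell (summed signal 1514 to 1764 in transgenic and 1485 to 1506 in control pools). The riser was Flt1, by 0.85 ± 0.18 at the probe set used (adjusted p = 0.0185). At 98453_at Flt1 rose by 3.03 ± 0.31 (adjusted p = 0.000186). It read 169.8 and 152.8 there in the transgenic pools and 17 and 19.5, under the floor, in the control pools. Of 5 tested mural genes 0 passed (406 to 426 against 486 to 511), and of 6 tested meningeal genes 0 passed (10045 to 10050 against 10485 to 10585). The largest meningeal signal was that of Ptgds, read at 102105_f_at. A dimmer Ptgds probe set, 92546_r_at, fell by 0.64 (adjusted p = 0.00403), while 92545_f_at did not pass (-0.20, adjusted p = 0.250). Of 9 tested astrocyte genes 1 rose and 3 fell (17140 to 17314 against 20904 to 20925), and of 9 tested neuronal genes 0 rose and 2 fell (17120 to 19041 against 21194 to 21392). These are 44.4% and 22.2%, against 9.49% of all genes read this way. The astrocyte riser was Aqp4 (424.3 and 684.5 against 36.7 and 47.5), tested only because of its transgenic values. Apoe, which fell, had the largest signal in the astrocyte sum (8204.6 and 7352.3 against 10598.5 and 9872.2). Of 9 tested microglial genes 0 rose and 1 fell, of 7 oligodendrocyte genes 0 rose and 1 fell, and of 3 striatal genes 0 passed. The 4 choroid plexus genes on the array were too dim to test, summing to 93.5 to 94.3 in transgenic and 125 to 137 in control pools. The part of any of these markers in the results below was not tested.

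**Figure D1:**
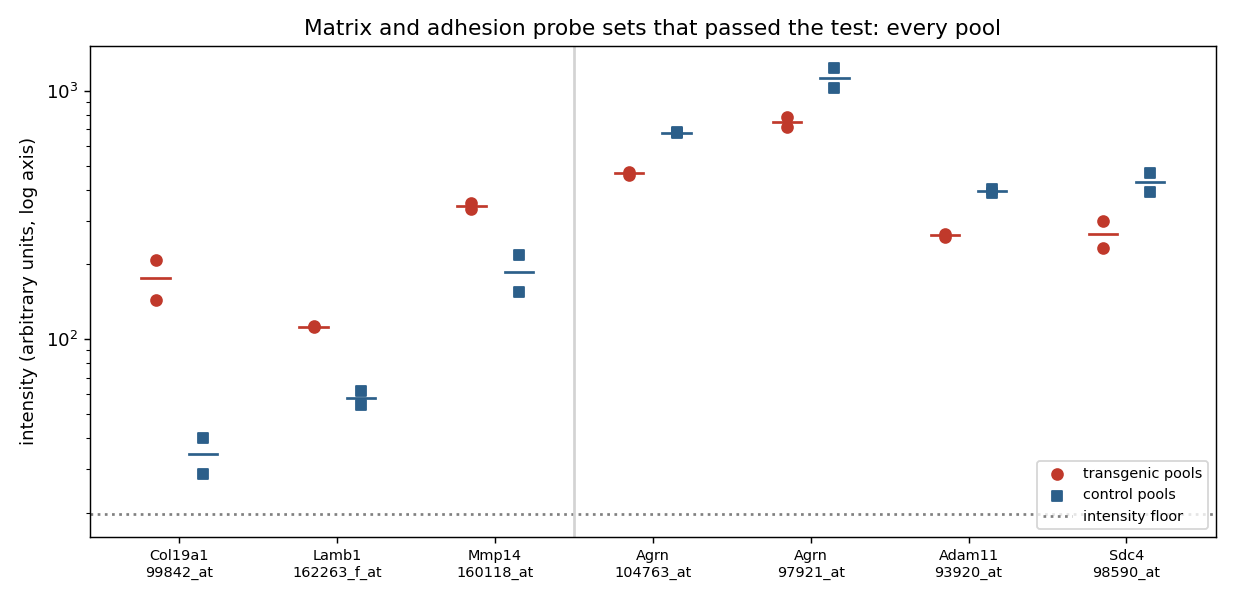
Intensity (arbitrary units, log axis) of the 7 matrix and adhesion probe sets that passed, with a point for each pool and a line at each group mean; the dotted line is the intensity floor of 19.675. Transgenic pools lie above control pools for Col19a1, Lamb1 and Mmp14 and below them for Agrn, Adam11 and Sdc4, with no overlap.

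Collagens form the fibres and sheets of the matrix, and of 18 tested collagen probe sets that of Col19a1 passed. Col19a1 encodes a non-fibrillar collagen that interneurons make in the mouse cortex and hippocampus, where it has been tied to the formation of inhibitory synapses. Its probe set read 144.3 and 208.9 in the transgenic pools and 28.7 and 39.9 in the control pools. The groups did not overlap, and both control values lay under the filter intensity of 49.4, so the probe set was tested only because of its transgenic values. The fitted log2 change was 2.36 ± 0.31 (SE; 5.13-fold, adjusted p = 0.00097). Its size depended on how values near the floor were treated, with 1.77 at a floor at the 40th percentile and 1.64 with 32 added to every value, and it passed under both. Without transgenic replicate 2 its adjusted p was 0.0522, and with no filter on dim probe sets it was 0.169.

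The other 17 tested collagen probe sets did not pass. Col9a1, a collagen of cartilage and eye, had 170.9 and 127.9 in the transgenic pools against 44.9 and 98.3 in the control pools, with a log2 change of 1.15 ± 0.36 (adjusted p = 0.0773). The control pools differed widely, and the log2 change was 1.72 without control replicate 2 (adjusted p = 0.000244) but 0.59 without control replicate 1 (adjusted p = 0.314). Without transgenic replicate 1 or 2 the adjusted p was 0.345 and 0.242. Its partner chains Col9a2 and Col9a3 had log2 changes of -0.10 and -0.26. Col7a1, which forms the anchoring fibrils of skin, had 45.4 and 43.5 in the transgenic pools against 110.0 and 74.9 in the control pools (log2 change -1.03 ± 0.32, adjusted p = 0.0755). Both transgenic values of Col7a1 lay under the filter intensity, so its probe set was tested only because of its control values.

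The chains of collagen IV, the network of the vascular basement membrane, lay on opposite sides of 0. Col4a1 read 218.7 and 198.3 in the transgenic pools and 118.0 and 168.7 in the control pools, and Col4a2 read 293.5 and 257.7 in the transgenic pools and 370.0 and 345.1 in the control pools. Neither pair of groups overlapped, yet neither gene passed, with log2 changes of 0.56 ± 0.22 (adjusted p = 0.147) and -0.38 ± 0.16 (adjusted p = 0.179). The difference between the chains was not tested. The chains of collagen VI, which links cells to fibres, had log2 changes of -0.47 (Col6a1), -0.31 (Col6a2) and -0.37 (Col6a3), and none passed. A second Col6a1 probe set, 162459_f_at, was too dim to test and read 21.9 and 30.1 in the transgenic pools and 75.9 and 78.9 in the control pools.

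The chains of fibrillar collagen I gave no call. Col1a1 had a log2 change of 0.29 at both of its probe sets. Col1a2 read 1040.5 and 870.9 in the transgenic pools against 1036.9 and 924.7 in the control pools at 161156_r_at. The log2 change there was -0.04 (95% confidence interval -0.35 to 0.27). Its suffix r marks a probe set that broke some of the platform's design rules. At the dimmer 101130_at Col1a2 read 86.8 and 112.0 in the transgenic pools and 141.4 and 120.8 in the control pools. These groups did not overlap, and the log2 change was -0.41 ± 0.24 (adjusted p = 0.338). Of 44 collagen probe sets 26 were not tested, among them those of Col3a1, Col4a3, Col4a4, Col4a5, Col8a1 and Col15a1, and their highest value on any array was 78.9.

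Laminins are trimers of an alpha, a beta and a gamma chain and organise basement membranes. Of the 6 tested laminin probe sets 1 rose, that of Lamb1 at 162263_f_at, and 0 fell. It read 111.7 and 113.0 in the transgenic pools and 61.5 and 54.4 in the control pools, a 1.94-fold rise (log2 change 0.96 ± 0.26 SE, adjusted p = 0.0458). The second Lamb1 probe set, 101948_at, was too dim to test and did not show this: it read 29.8 and 44.7 in the transgenic pools and 41.8 and 43.0 in the control pools, and the groups overlapped. The suffix f on this platform marks a probe set that may detect related sequences, and the rise thus rests on that probe set alone. Leaving out any 1 of the 4 pools put its adjusted p between 0.0612 and 0.170, and quantile normalization put it at 0.0521.

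The other laminin chains gave no call. Lamc1, the gamma chain of most brain laminins, read 244.1 and 156.3 in the transgenic pools and 199.9 and 202.3 in the control pools (log2 change -0.04 ± 0.23). That was at 161706_f_at, whose suffix f carries the same limit as for Lamb1. A second Lamc1 probe set, 102404_at, was too dim to test. It read 23.6 and 18.6 in the transgenic pools and 35.0 and 27.8 in the control pools, without overlap. Lama1 had -0.44 ± 0.31 (adjusted p = 0.433), Lamb2 -0.39, Lama2 0.04 and Lama4 0.08. Lama5, an alpha chain of mature vascular basement membranes, was too dim to test at 99931_at but had separate groups, with 18.1 and 19.2 in the transgenic pools and 67.3 and 45.1 in the control pools. Both transgenic values lay under the floor, so the signal was at least 2.80-fold lower there, with no test. A second Lama5 probe set, 161702_f_at, read 47.0 and 26.8 in the transgenic pools and 36.3 and 45.9 in the control pools, and these overlapped.

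Among the matrix glycoproteins and proteoglycans 0 of 11 tested probe sets rose and 2 fell, and both were of Agrn, which encodes agrin, the heparan sulfate proteoglycan that nerve terminals use to cluster acetylcholine receptors in muscle. At 97921_at Agrn read 787.6 and 717.0 in the transgenic pools and 1235.3 and 1029.0 in the control pools, and at 104763_at it read 472.7 and 460.2 in the transgenic pools and 682.8 and 674.5 in the control pools. Made from different source sequences, the probe sets gave close log2 changes of -0.59 ± 0.14 and -0.54 ± 0.13 (adjusted p = 0.0280 and 0.0324), falls of 1.50-fold and 1.46-fold. Agrn was the only one of the called member genes read by more than 1 tested probe set. Without transgenic replicate 1 or 2 the adjusted p was 0.107 and 0.181 at 97921_at and 0.108 and 0.137 at 104763_at, with log2 changes between -0.65 and -0.52. Without control replicate 1 it was 0.156 and 0.108 at these probe sets, and without control replicate 2 it was 0.0851 at 104763_at.

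The lecticans of the neural matrix gave no call. Neurocan (Ncan) had log2 changes of -0.38 ± 0.16 at 98798_at (adjusted p = 0.179) and -0.51 ± 0.26 at 98799_g_at (adjusted p = 0.264). At the first it read 236.7 and 231.0 in the transgenic pools against 315.1 and 293.6 in the control pools, without overlap. Brevican (Bcan) had -0.11 ± 0.15 at 92700_at and 0.16 ± 0.42 at 161996_f_at, and versican (Vcan) had -0.01 ± 0.22. The small leucine-rich proteoglycan Lum, which spaces collagen fibrils, read 45.3 and 62.1 in the transgenic pools and 96.1 and 77.7 in the control pools (log2 change -0.70 ± 0.31, adjusted p = 0.196), whereas its relative Dcn had 0.28 ± 0.19. Fibronectin (Fn1) had -0.11 ± 0.17 and Sparc, a collagen-binding protein that astrocytes and vessels secrete, had -0.25 ± 0.16. Perlecan (Hspg2) was too dim to test, with 67.0 and 41.7 in the transgenic pools and 39.8 and 31.1 in the control pools.

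Reelin (Reln) is a secreted glycoprotein that guides cortical layering in development and is made by interneurons in the adult cortex. Its main probe set, 96591_at, read 993.4 and 944.1 in the transgenic pools and 972.1 and 680.9 in the control pools, which overlapped (log2 change 0.25 ± 0.17, 95% confidence interval -0.13 to 0.63, adjusted p = 0.419). A second, 161231_r_at, had 90.6 and 51.4 against 36.5 and 47.8 (0.71 ± 0.38, adjusted p = 0.300). Fibulins bridge other matrix proteins, and thrombospondins are adhesive glycoproteins that astrocytes use to promote synapses. Fbln2 read 174.1 and 141.1 in the transgenic pools and 95.1 and 89.7 in the control pools (log2 change 0.76 ± 0.22, adjusted p = 0.0601). Fbln1 had -0.22 ± 0.20 at 94309_g_at and -0.13 ± 0.16 at 94308_at, and Thbs3 had -0.36 ± 0.28. None of the 4 tested fibulin and thrombospondin probe sets passed.

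None of the 15 tested integrin probe sets passed, and 1 had an unadjusted p under 0.05. Itgb1, the beta chain that most matrix-binding integrins share, did not pass at either of its tested probe sets. It read 975.2 and 1128.1 in the transgenic pools and 1004.4 and 1127.9 in the control pools at 100123_f_at, with a log2 change of -0.02 (95% confidence interval -0.32 to 0.28). The suffix f carries the same limit as for Lamb1. At 100124_r_at Itgb1 had 0.04 (95% confidence interval -0.44 to 0.52). Such intervals reflect spread among these arrays, which may be technical. Itgb5, a beta chain that binds vitronectin with alpha V, had a log2 change of 0.01 at 100601_at (95% confidence interval -0.33 to 0.35). Its partner Itgav read 1620.3 and 2037.4 in the transgenic pools and 1316.1 and 1722.7 in the control pools at 104386_f_at, which overlapped (0.27 ± 0.16, adjusted p = 0.349). As its suffix f says, that probe set may detect related sequences. At 104385_i_at Itgav read only 42.8 and 60.3 in the transgenic pools and 73.3 and 39.3 in the control pools (-0.08 ± 0.40). At 98366_at it was too dim to test. Itgb7, a lymphocyte beta chain, had -0.55 ± 0.25 (adjusted p = 0.215), and the other tested alpha chains were Itga3, Itga7 and Itgax. The probe set of unadjusted p under 0.05 was of Itgb1bp1, an intracellular protein that binds the tail of beta 1 and falls under the rule by its symbol. It had 0.69 ± 0.28 at 100991_at (adjusted p = 0.167) but -0.28 ± 0.18 and 0.03 ± 0.20 at its other probe sets. The remaining 19 integrin probe sets were not tested, including those of the leukocyte chains Itgal, Itgam and Itgb2 and of Itga4, Itga5, Itga6, Itga8 and Itgb3.

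Syndecans carry heparan sulfate on the cell surface and work beside integrins at adhesion sites. Sdc4, the syndecan of focal adhesions, fell. It read 299.1 and 233.1 in the transgenic pools and 392.1 and 468.2 in the control pools, a 1.62-fold fall without overlap (log2 change -0.70 ± 0.18 SE, adjusted p = 0.0386). Without transgenic replicate 1 or 2 its adjusted p was 0.0800 and 0.225, and without control replicate 2 it was 0.135. Sdc2, the syndecan of dendritic spines, lay on the other side of 0, with 383.3 and 417.8 in the transgenic pools and 240.0 and 360.0 in the control pools (log2 change 0.45 ± 0.20, adjusted p = 0.214). Its log2 change was 0.74 without control replicate 2 (adjusted p = 0.0271) and 0.15 without control replicate 1 (adjusted p = 0.804). Syntenin (Sdcbp), which binds the tails of syndecans, had 0.44 ± 0.24 (adjusted p = 0.305). Sdc1 and Sdc3 were too dim to test.

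**Figure D2:**
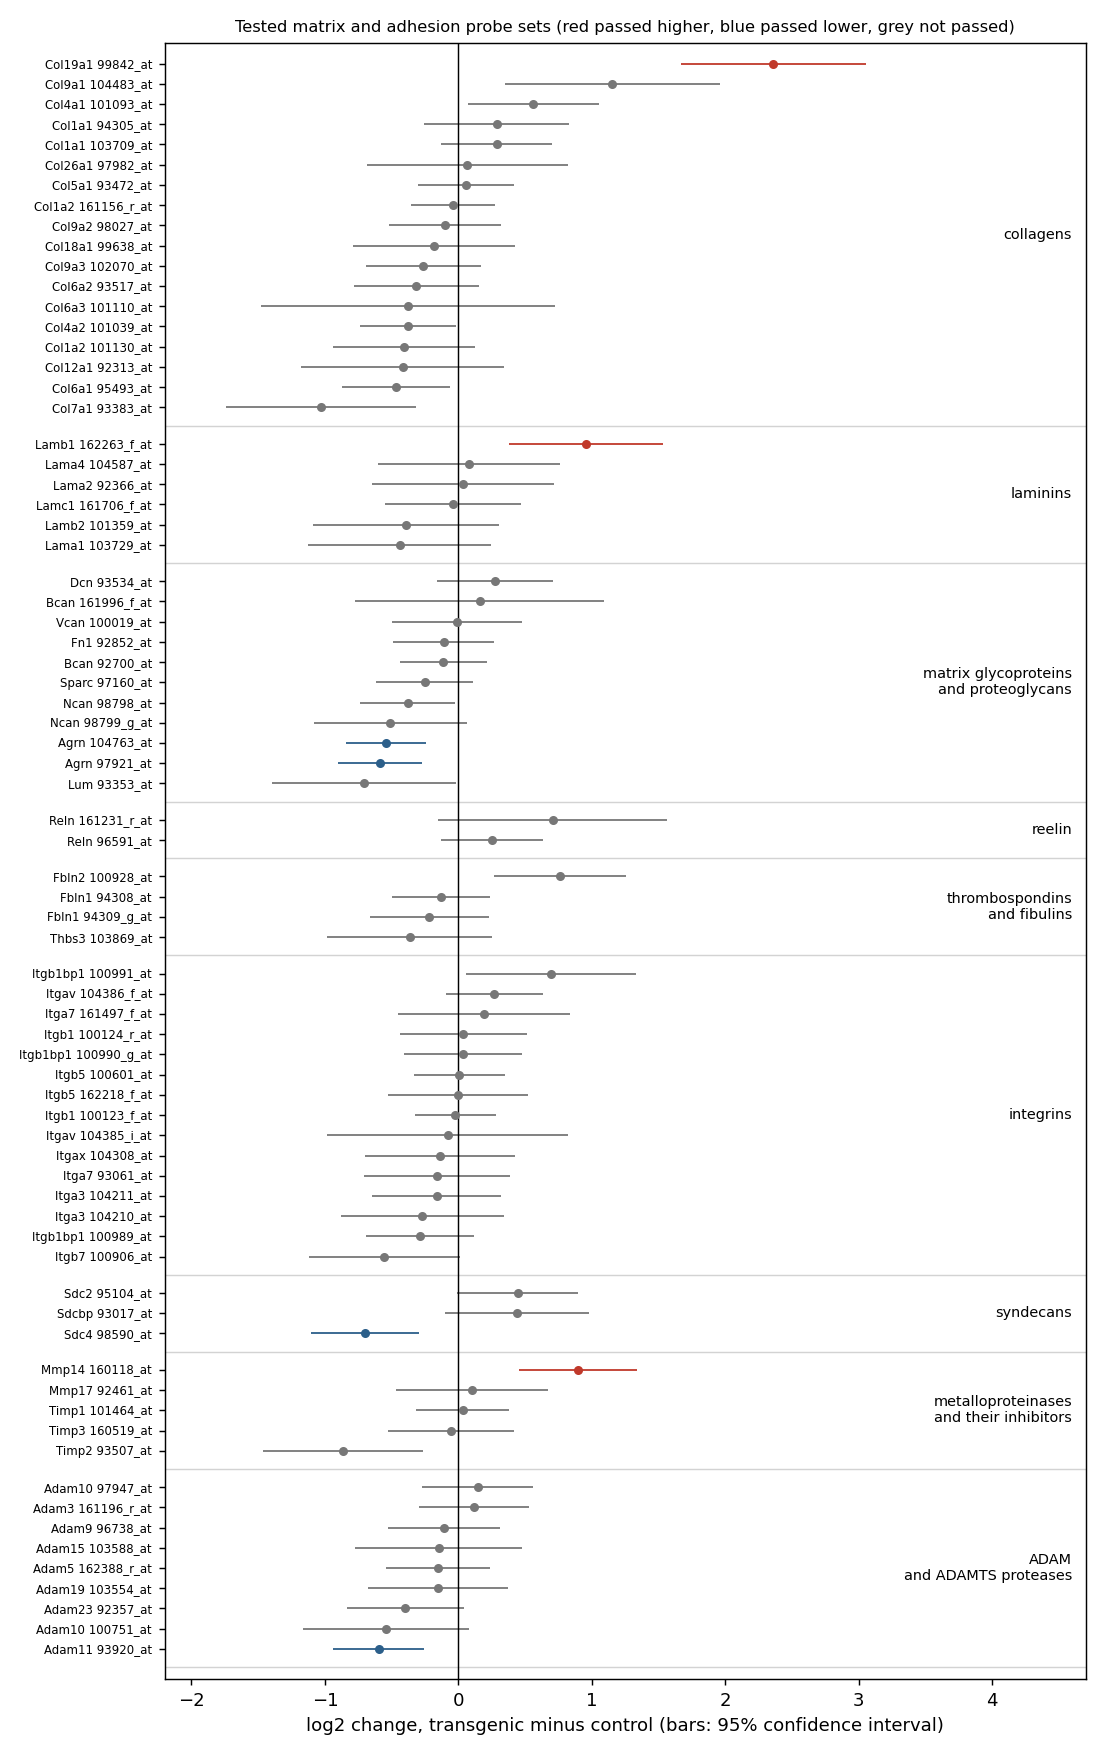
Log2 change (transgenic minus control) of the 73 tested matrix and adhesion probe sets with its 95% confidence interval, grouped by role; red marks the 3 that passed higher, blue the 4 that passed lower and grey the 66 that did not pass. Col19a1 lies at 2.36, and most intervals include 0.

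Among the matrix metalloproteinases 1 probe set rose, that of Mmp14, which encodes a membrane-bound protease that cuts collagen and activates the proenzyme of Mmp2. It read 335.0 and 352.3 in the transgenic pools and 219.0 and 155.4 in the control pools. The groups did not overlap, and the rise was 1.86-fold (log2 change 0.90 ± 0.20 SE, adjusted p = 0.0193). Without transgenic replicate 1 or 2 the adjusted p was 0.135 and 0.176, and without control replicate 2 it was 0.0729. Timp2, the inhibitor that bridges Mmp14 and the Mmp2 proenzyme, read 125.7 and 234.5 in the transgenic pools and 292.1 and 333.7 in the control pools at 93507_at. It did not pass (log2 change -0.86 ± 0.27, adjusted p = 0.0758), but it passed without transgenic replicate 2 (-1.31, adjusted p = 0.0356) and without control replicate 1 (-0.96, adjusted p = 0.0174). It was -0.41 without transgenic replicate 1 (adjusted p = 0.268) and -0.77 without control replicate 2 (adjusted p = 0.0769).

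The other inhibitors and proteases gave no call. Timp3, the inhibitor bound to the matrix, had a log2 change of -0.06 (95% confidence interval -0.53 to 0.42), and Timp1, an inhibitor induced by injury, had 0.03 (-0.32 to 0.38). Mmp17, another membrane-bound protease, had 0.10 ± 0.25. Mmp2 lay under the filter at both of its probe sets, with values of 33.3 or less, and the secreted proteases Mmp3, Mmp7, Mmp8, Mmp9, Mmp10, Mmp12 and Mmp13 read 32.6 or less on every array. The highest value of any untested member of this group was 52.0, for Mmp11. These genes were not measurable at this signal, and that does not show that they are absent.

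ADAM proteins combine a protease domain with an integrin-binding domain, and some lack protease activity and act as receptors at synapses. Adam11, a member without protease activity, fell. It read 258.8 and 264.7 in the transgenic pools and 403.7 and 388.6 in the control pools, a 1.51-fold fall with pools of a group close to each other (log2 change -0.60 ± 0.15 SE, adjusted p = 0.0360). Leaving out any 1 pool kept its log2 change between -0.63 and -0.57, with adjusted p between 0.0851 and 0.142. Its relatives Adam22 and Adam23, receptors for the secreted synaptic protein Lgi1, did not add calls. Adam23 read 180.8 and 223.5 in the transgenic pools and 297.4 and 235.5 in the control pools (log2 change -0.40 ± 0.19, adjusted p = 0.251), and Adam22, which was not tested, read 28.8 and 25.8 in the transgenic pools against 46.8 and 39.1 in the control pools.

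Adam10, the alpha-secretase that sheds the amyloid precursor protein and other surface proteins, differed between its probe sets, with -0.54 ± 0.28 at 100751_at and 0.14 ± 0.19 at 97947_at (adjusted p = 0.274 and 0.694). Adam9, Adam15 and Adam19 had log2 changes of -0.11, -0.15 and -0.15, and Adam17, the sheddase of tumour necrosis factor, read 25.5 or less on every array. Adam2, Adam3, Adam4 and Adam5, genes of the testis and sperm, were at or under the floor at 5 probe sets. Adam3 at 161196_r_at and Adam5 at 162388_r_at were nevertheless tested, with 0.12 ± 0.18 and -0.15 ± 0.17. Adam5 read 457.3 and 347.5 in the transgenic pools and 417.5 and 471.1 in the control pools at that probe set. The suffix r marks a probe set that broke some of the platform's design rules.

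Over the tested members as a whole, the log2 changes had a median of -0.11 (quartiles -0.37 and 0.12), beside -0.03 (quartiles -0.26 and 0.21) over all 7453 tested probe sets. Values lay above 0 for 28 of the members and below 0 for 45. A change of over 1 log2 unit in either direction was seen in 4.11% of the members (2 up and 1 down) and in 5.62% of all tested probe sets. An unadjusted p under 0.05 was seen in 17 members, 23.3% against 24.3%. Groups did not overlap in 36 members, 12 higher and 24 lower in the transgenic pools, or 49.3% against 53.7% of all tested probe sets (23.8% higher and 29.9% lower). The median gap between pools of a group was 0.27 log2 units in transgenic and 0.26 in control pools for the members, beside 0.20 and 0.17 over all tested probe sets. The pools of a group thus lay farther apart for the members, whose median SE was 0.22 against 0.19, and none of these summaries was tested against the rest of the array.

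**Figure D3:**
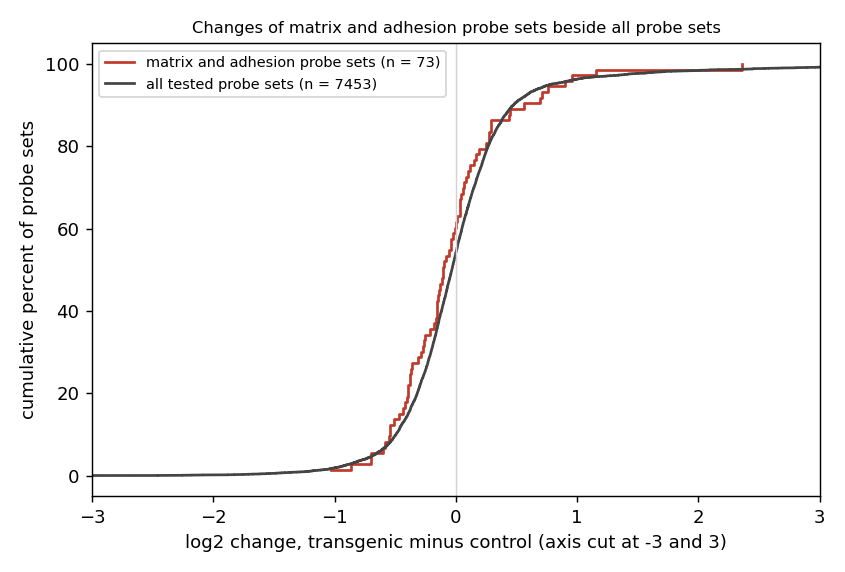
Cumulative percent of probe sets (vertical axis) against log2 change, transgenic minus control (horizontal axis), for the 73 tested matrix and adhesion probe sets (red) and all 7453 tested probe sets (dark grey). The medians are -0.11 and -0.03.

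Of the 58 tested genes 14 were read by more than 1 tested probe set. In 7 of them (Agrn, Col1a1, Col1a2, Fbln1, Itga3, Ncan and Reln) the log2 changes had the same sign at each probe set, and in the other 7 (Adam10, Bcan, Itga7, Itgav, Itgb1, Itgb1bp1 and Itgb5) they did not. For Reln the shared sign is no check, since 161231_r_at was tested only because of its transgenic values. The gap between probe sets of a gene was largest for Itgb1bp1 (0.98) and Adam10 (0.69), and under 0.06 for Col1a1, Itgb5, Agrn and Itgb1. Where a gene was read by 1 tested probe set, as Col19a1, Mmp14, Sdc4 and Adam11 were, no such check was available.

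**Figure D4:**
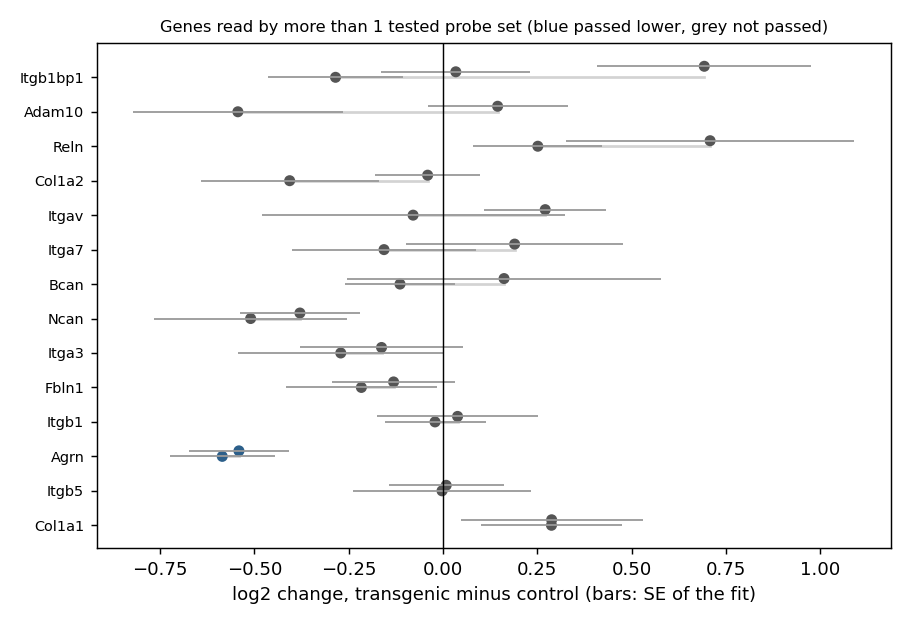
Log2 change (transgenic minus control) with its SE at each tested probe set of the 14 genes read more than once, ordered by the gap between probe sets with the widest at the top. The Agrn probe sets lie together at -0.59 and -0.54 (blue, passed lower), whereas those of Itgb1bp1 span 0.98 log2 units.

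Partner genes of the matrix, in 6 lists and each read from its tested probe set of highest signal, gave 2 rises and 5 falls among 69 tested genes, or 10.1%, against 9.49% of 5701 genes read the same way (4.49% of them fell). The median log2 change over the partner genes was -0.07. Of 14 tested basement membrane proteins and matrix receptors 1 rose and 0 fell. The riser was Dab1, the adaptor that carries the reelin signal into the cell, with 236.1 and 255.2 in the transgenic pools and 102.6 and 136.2 in the control pools (log2 change 1.05 ± 0.21, adjusted p = 0.0107). Without transgenic replicate 1 or 2 its adjusted p was 0.0950 and 0.132. The reelin receptor Vldlr was too dim to test. Dag1, the laminin and agrin receptor dystroglycan, had -0.08 ± 0.15 (adjusted p = 0.798). Cd47, a receptor for thrombospondin, had -0.12 ± 0.14 at 95020_at, the probe set used, but rose by 4.75 at 103611_at, where it read 2259.8 and 2257.1 in the transgenic pools and 84.8 and 82.6 in the control pools.

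Among other matrix proteins 0 of 14 rose and 2 fell. The proteoglycan Spock1 (testican) read 579 and 813.6 in the transgenic pools and 1345.9 and 1492.2 in the control pools (log2 change -1.05 ± 0.17, adjusted p = 0.00368). Nell2, a secreted glycoprotein of neurons, read 1143.6 and 956.5 in the transgenic pools and 2345.7 and 1976 in the control pools (-1.04 ± 0.14, adjusted p = 0.00111). Of the 9 tested neuronal markers 2 fell (Camk2a and Snap25) and 7 did not pass. Only 2 of the 9 lay above 0, Gad1 at 0.33 and Nefl at 0.28, and the median over the 9 was -0.37. The part of these markers in the result was not tested. Of 9 collagen-processing genes 0 rose and 1 fell, Bmp1, the protease that removes the end of procollagens. At 95557_at it read 139.1 and 89.1 in the transgenic pools against 223.9 and 225.4 in the control pools (-1.01 ± 0.24, adjusted p = 0.0263). Over the alternatives its log2 change ran from -1.33 to -0.69. The call was kept in 11 of 14, but not without transgenic replicate 2. The second Bmp1 probe set, 92701_at, did not pass (-0.41 ± 0.21, adjusted p = 0.282).

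Focal adhesion genes, which couple integrins to actin, gave 1 rise and 1 fall among 15. The adaptor Lims1 rose by 0.74 ± 0.20 (adjusted p = 0.0466, and between 0.0537 and 0.211 with any 1 pool left out), and the actin crosslinker Actn1 fell by 0.56 ± 0.14 (adjusted p = 0.0362, and 0.0738, 0.190 and 0.125 without transgenic replicate 1, transgenic replicate 2 or control replicate 1). The Actn1 call was at 104578_f_at, and the other tested Actn1 probe sets did not pass. They had -0.08 ± 0.25 at 104579_r_at and -0.42 ± 0.28 at 92280_at (adjusted p = 0.885 and 0.410). Talin (Tln1), which activates integrins, had -0.26 ± 0.14 at the probe set used and fell by 0.62 ± 0.14 at 102732_at (adjusted p = 0.0234). Of 13 serine and cysteine proteases and their inhibitors 0 rose and 1 fell, the cathepsin Ctsb (-0.42 ± 0.11, adjusted p = 0.0356, and between 0.0851 and 0.177 with any 1 pool left out). The Ctsb call was at 94831_at, and the other tested Ctsb probe sets did not pass. They had -0.39 ± 0.19 at 92256_at and -0.11 ± 0.17 at 95608_at (adjusted p = 0.256 and 0.761). The inhibitor Cst3 had -0.15 ± 0.10 at the probe set used and fell by 0.61 ± 0.13 at 161522_i_at (adjusted p = 0.0168). Of the 4 tested genes of hyaluronan and the perineuronal net 0 passed, and Hapln1 and Acan, which build the net around interneurons, were too dim to test.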

How the data were processed

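RNA of prefrontal cortex was measured on 4 arrays, and groups and replicate numbers came from the sample titles. Values in the deposited table are intensities on a linear scale, 1 for each pool, a unit read from the values since neither labels nor header name it. How the authors summarised and scaled the arrays was not given in the sources used here. The mean between the 2nd and 98th percentiles was close to 250 on every array, so the values were used as deposited. Whether the 2 pools in a group shared mice is not stated, so the p-values reflect spread among these arrays that may be technical, and no batch is given, so batch and group cannot be told apart.

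The table lists 12488 probe sets, and 66 of them, platform controls, were dropped. Gene symbols came from the platform annotation (10833 probe sets with 1 gene, 1589 with several or none) and, for the 164 members, were the same in the RefSeq gene table. Probe positions were not used. Intensities were floored at the 25th percentile and put on the log2 scale. Probe sets above the 40th percentile of mean log2 entered limma (version 3.58.1, under R version 4.3.3; lmFit, eBayes with intensity trend, two-sided, Benjamini-Hochberg). Residual degrees of freedom were 2 and the prior added 7.51. The number of arrays limits the precision, and the median SE was 0.19. The fit was tested on simulated data, with changes planted only in probe sets well above the filter. That test does not cover probe sets nearer the filter, such as those of Col19a1 and Lamb1.

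The members and lists were chosen with earlier results of these data known. Named were every gene with a call, in each role the probe set of highest signal and the largest uncalled change, dim members over 2-fold apart with the higher mean over 50.9, and partner genes that passed; other members were named to complete a role. Alternatives covered scaling, floor, filter, variance model, probe sets per gene, pairing and each pool left out.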

Additional observations from a re-analysis of the deposited data

How the results depend on the processing

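Over 30 named probe sets and their alternatives, 338 of 407 comparisons stayed on the same side of the threshold. Of the rest, 63 lost a call and 6 gained one, and 0 called changes reversed. The 338 include probe sets without a call in the main fit, which counted as kept when they stayed uncalled, whatever their sign. Col1a2 at 161156_r_at, for example, ran from -0.17 to 0.09. All 63 losses fell on called probe sets, so the total overstates how stable the calls were. Member calls were kept in 7 of 13 alternatives for Lamb1 and, at most, in 11 of 13 for Col19a1. Without the filter on dim probe sets the calls among matrix and adhesion probe sets were 0 higher and 0 lower, 48 over all probe sets and 0 of the partner genes. With a filter at the 60th percentile, which tests 40 members, 1 was higher and 4 were lower. Without the intensity trend 2 were higher (Col19a1 and Lamb1) and 0 lower, with 395 over all probe sets and 2 partner genes, and the split of all calls was 272 higher and 123 lower, against 407 and 340. The cause was not tested. At a filter at the 60th percentile that split was 300 and 347. With 1 pool left out, calls ranged from 0 to 4 higher and from 0 to 3 lower among members, from 303 to 749 over all probe sets and from 2 to 6 among partner genes; with transgenic replicate 1 or 2 out they were 1 and 0 higher, 0 and 1 lower, 303 and 313 in all and 3 and 2 among partners, and with control replicate 2 out 2 members were lower. Leaving a lone array in a group assumes that it varies like the other group. With the replicate number as a block, calls were 4 higher and 5 lower (892 over all probe sets, 8 partner genes), adding Fbln2 (adjusted p = 0.0491) and Timp2 (adjusted p = 0.0218). The labels give no pairing, and the deviations of same-numbered pools correlated at 0.056. Values near the floor limit what can be said of the 91 untested probe sets.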
